A study of Homo sapiens with 6 samples.

Results

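The neurotrophins and the GDNF family ligands, with the receptors that bind them, were examined in cells of the ovarian cancer line PEO4 in which SHMT1 had been knocked down. Of 9 member genes, 7 had a probe in the array annotation used here (BDNF, NTF4, NTRK2, ARTN, GFRA1, GFRA2 and RET), with 22 probes in all, among 20045 genes with a probe. NTF3 and GDNF were not analysed here. The members were chosen by earlier results of the same arrays, in which BDNF fell and GFRA2 rose with both SHMT1 shRNAs, so every value against the control is given for them as a description and without a p-value.

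PEO4 is an established high-grade serous ovarian cancer line. Lentivirus carried a nonspecific (NS) control shRNA or 1 of 2 shRNAs to SHMT1, named F11 and F12 in the labels, and infected cells were enriched with puromycin, so all 3 groups share infection and selection and were grown in the same serum-containing medium. SHMT1 makes one-carbon units for nucleotide synthesis in the cytoplasm. Each group had 2 Illumina HumanHT-12 arrays of total RNA, numbered as replicates by the labels. The methods speak of biological replicates for the experiments in general, in a number that differs from the arrays per group here, and do not say what these arrays were replicates of, so the tests measure only the spread between these arrays.

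Neurotrophins such as BDNF and NTF4 are secreted proteins that bind the tyrosine kinase receptor TrkB, the product of NTRK2, and support the survival and growth of neurons. The GDNF family ligands, among them artemin (ARTN), do not bind their kinase directly. They first bind a GFRα co-receptor held on the membrane by a lipid anchor, and the pair then engages the receptor tyrosine kinase RET. GFRα1 is the main co-receptor for GDNF and GFRα2 for neurturin, while artemin prefers a further co-receptor, GFRα3.

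The deposited values were quantile-normalized intensities, not log-transformed, whose median was 89.9 for each of the 6 arrays. Most probes formed a peak of unspecific signal at 85.5, and a probe was called above background in a group when it exceeded 91.7 on both arrays, the 95th percentile of that peak. This left 22794 of 47321 probes to test (48.2%), those over the limit on at least 2 of the 6 arrays. Over the 22794 tested probes, replicates correlated at 0.994 to 0.997 and arrays of different groups at 0.988 to 0.995. The brightest SHMT1 probe read 542.1 and 544.2 with NS shRNA, 290.9 and 342.1 with F11, and 434.4 and 441.5 with F12, each knockdown array being dimmer than each control array. SHMT1 thus changed by −0.78 on the log2 scale in F11 cells (adjusted p = 0.0053, limma) and by −0.31 in F12 cells (adjusted p = 0.213), and the F11 call was lost without either NS array (log2 −0.79 and −0.78). On the brightest SHMT1 probe F12 lay above F11 by 0.47 (adjusted p = 0.0196, limma). A second, dimmer SHMT1 probe changed by −0.28 with F11 (adjusted p = 0.0714, limma) and by −0.04 with F12 (adjusted p = 0.885). The third, also dim, changed by −0.04 with each shRNA. The lower SHMT1 level with F12 was thus read from the brightest probe alone. In all, 10 of 11 serous carcinoma marker genes exceeded the limit on all 6 arrays, against 0 of 6 fibroblast, 0 of 4 endothelial and 0 of 3 glial markers, 2 of 6 neuronal markers and 1 of 4 leukocyte markers, CD14.

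Of the 7 genes, 5 were above background in at least 1 group: the ligands BDNF, NTF4 and ARTN, the co-receptor GFRA2 and the kinase RET. On each array 44.6% of all probes exceeded the limit. The share of all genes above background by this rule was not computed, so the count is a description of these genes only. NTRK2, which encodes the receptor for BDNF and NTF4, and GFRA1 were not above background in any group. The same 5 genes were found with a limit of 94.4, the 99th percentile of the same peak, and with a limit of 92.2, the 95th percentile of 437 olfactory receptor probes. The calls at the limit could be moved by 1 array. GFRA1 counted as above background when NS replicate 1 or F12 replicate 1 was left out, and NTRK2 when NS replicate 2 was left out, which gave 6 genes each time. Intensities include unspecific signal, so the fold changes of dim probes are understated, and the level of 1 probe cannot be set against that of another.

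**Figure D1:**
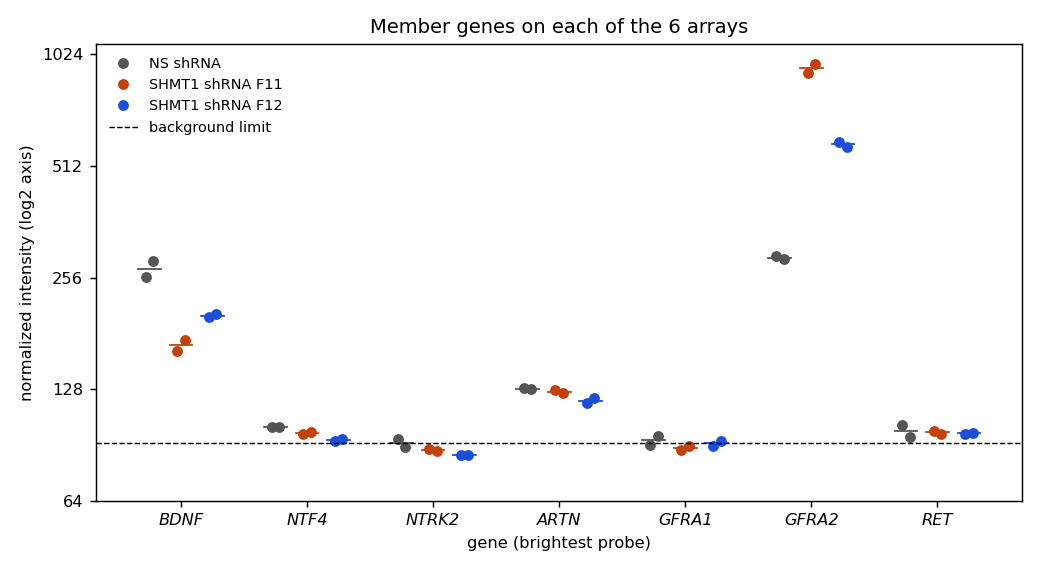
Normalized intensity (log2 axis) of the brightest probe of each member gene on the 6 arrays, with the mean of each group as a short line and the background limit of 91.7 as a dashed line. GFRA2 separated the 3 groups, BDNF lay lower on all 4 SHMT1 shRNA arrays, and NTF4 and RET lay just over the limit.

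BDNF is made from several promoters, each of which adds its own first exon to a shared coding exon. The RefSeq promoter table (GRCh38.p14) gave 5 start sites for BDNF, all on the minus strand of chromosome 11. Both strands of the windows from 250 bases before to 50 bases after each start were searched for a CRE half-site, TGACG, the core recognized by CREB, and for the E-box CACGTG, bound by USF factors, and no match of one overlapped a match of the other in the BDNF windows. The half-site was in 1 of the 5 BDNF windows and in 24.6% of all 35116 promoter windows of this length, and the E-box was in 1 of the 5 and in 7.26% of all. The 250 bases upstream of these 2 starts are shown because the BDNF probes were annotated to transcripts that differ in their first exon, with the half-site (read here on its reverse strand as CGTCA) or the E-box in capitals.
BDNF start with the E-box, chr11:27720780-27721029, minus strand: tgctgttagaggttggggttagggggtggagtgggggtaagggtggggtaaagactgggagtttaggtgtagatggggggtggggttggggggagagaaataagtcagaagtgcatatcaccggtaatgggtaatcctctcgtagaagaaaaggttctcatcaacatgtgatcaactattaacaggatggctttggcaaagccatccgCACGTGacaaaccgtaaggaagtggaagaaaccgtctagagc
BDNF start with the CRE half-site, chr11:27701622-27701871, minus strand: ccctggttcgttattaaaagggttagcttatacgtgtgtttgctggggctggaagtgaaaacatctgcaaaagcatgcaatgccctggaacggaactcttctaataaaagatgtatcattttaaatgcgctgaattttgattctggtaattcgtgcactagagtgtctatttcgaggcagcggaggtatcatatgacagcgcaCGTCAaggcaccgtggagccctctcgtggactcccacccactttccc

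The BDNF signal came from 1 of its 7 probes. The bright probe, annotated to NM_001709, read 256.2 and 283.9 with NS shRNA, 161.9 and 174.1 with F11, and 200.4 and 203.8 with F12. The 4 knockdown arrays were all dimmer than the NS pair, and both F11 arrays were dimmer than both F12 arrays. The intensity with F11 was 62.2% of that with NS shRNA (log2 fold change −0.68, SE 0.0714), the intensity with F12 was 74.9% (−0.42, SE 0.0714), and the average of both shRNAs was 68.3% (−0.55, SE 0.0619). The order of BDNF was therefore NS, F12, F11 from high to low. In the comparison of the SHMT1 shRNAs with each other, which the choice of BDNF did not use, F12 lay above F11 by 0.27 on the log2 scale (95% interval 0.10 to 0.44), which did not pass the test (adjusted p = 0.0804, limma; 0.0585 to 0.343 over its alternatives).

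The other BDNF probes carried little signal. A second probe annotated to NM_001709 read 94.9 and 97.8 with NS shRNA, 92.6 and 85.7 with F11, and 92.6 and 96.3 with F12, so both F11 arrays lay below both NS arrays and F11 replicate 2 fell under the limit, while F12 overlapped NS. Its log2 fold changes were −0.11 (SE 0.0636) with F11 and −0.03 (SE 0.0636) with F12. The remaining 5 probes, annotated to the single transcripts NM_170731, NM_170732, NM_170733, NM_170734 and NM_170735, were not above background in any group. These single-transcript probes thus gave no value for which BDNF start was in use. A probe for BDNF-AS, the antisense transcript of the locus, read 92.6 and 91.3 with NS shRNA, 88.8 and 89.7 with F11, and 86.7 and 89.3 with F12, and was not above background in any group.

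**Figure D2:**
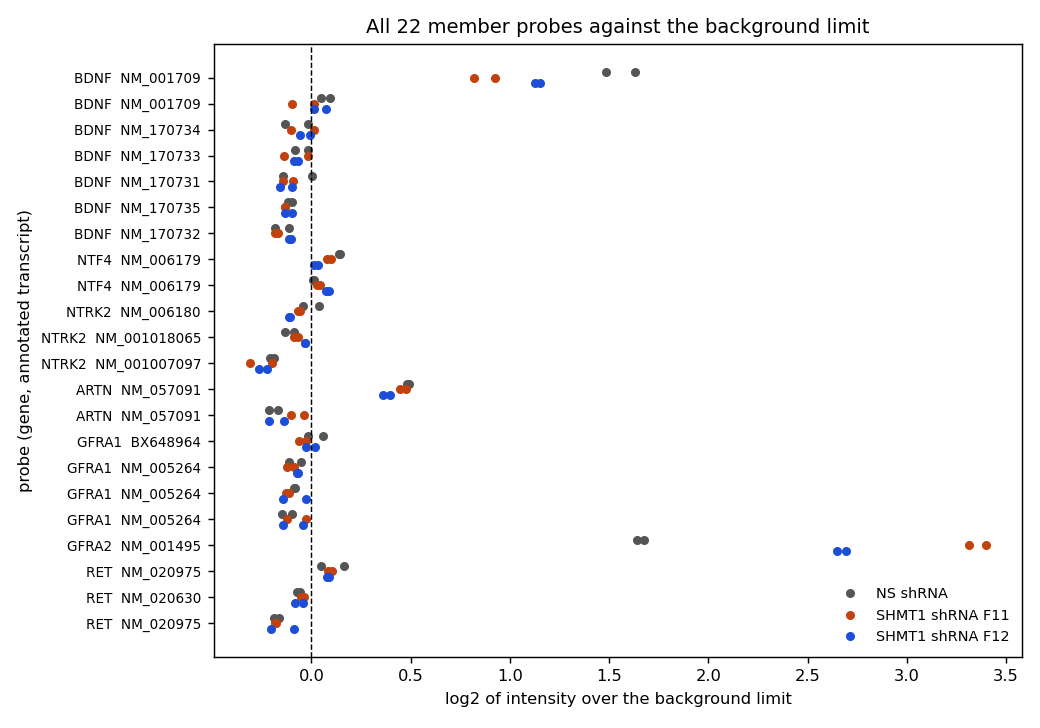
Log2 of intensity over the background limit for all 22 member probes, 1 row per probe with its annotated transcript and 1 point per array. Only 1 of the 7 BDNF probes and the single GFRA2 probe lay far to the right of the limit, followed by 1 ARTN probe, and all NTRK2 rows lay at or left of it apart from 1 NS array.

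NTF4, the other TrkB ligand measured, had 2 probes for the same transcript that moved in opposite directions. The first read 101.2 and 101.1 with NS shRNA, 96.8 and 98.2 with F11, and 92.6 and 93.9 with F12, so all 4 SHMT1 shRNA arrays were below both NS arrays. The second read 92.1 and 92.5, then 93.6 and 94.6, then 97.5 and 96.5, so all 4 were above. Their averaged log2 fold changes were −0.08 (SE 0.0464) and 0.05 (SE 0.0462), and no direction is given for the gene. Between F12 and F11 the first probe differed by −0.06 (95% interval −0.19 to 0.06, adjusted p = 0.587, limma) and the second by 0.04 (−0.08 to 0.17, adjusted p = 0.732).

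ARTN was the only GDNF family ligand among the members with a probe. Its brighter probe read 129 and 127.8 with NS shRNA, 127.4 and 124.9 with F11, and 117.7 and 120.8 with F12. The 4 knockdown arrays were all dimmer than the NS pair, although the upper F11 array was within 1 unit of the lower NS array. The log2 fold change was −0.03 (SE 0.0546) with F11 and −0.11 (SE 0.0546) with F12, and F12 differed from F11 by −0.08 (95% interval −0.21 to 0.05, adjusted p = 0.485, limma). The second ARTN probe, for the same transcript, lay between 79.1 and 89.2, at background on all arrays.

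GFRA2, the neurturin co-receptor, had the largest change of the member genes in both shRNA lines. Its single probe read 292.5 and 286.3 with NS shRNA, 912 and 966.3 with F11, and 594.1 and 575.1 with F12. No 2 groups overlapped, and the replicates of a group lay close together (SD 4.38, 38.3 and 13.4, n = 2 each). The intensity was 3.24-fold that of NS shRNA with F11 (log2 1.70, SE 0.0592), 2.02-fold with F12 (log2 1.01, SE 0.0592) and 2.56-fold for their average (log2 1.36, SE 0.0513). The F12 level was lower than the F11 level by −0.68 on the log2 scale (SE 0.0592, 95% interval −0.82 to −0.54, adjusted p = 0.00135, limma), and the test passed in all 12 alternatives run (adjusted p from 0.000604 to 0.0299). In F12 against F11, here and below, the alternatives without either NS array and that of only the groups compared are the same fit. They are counted separately among the 12. The order of GFRA2 from low to high was thus NS, F12, F11, and the order of SHMT1 from high to low on its brightest probe was the same. On the dimmer SHMT1 probes the F12 arrays overlapped the NS arrays. Whether the depth of knockdown had a part in the GFRA2 level was not tested.

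The partners of GFRA2 at the membrane lay near or under the background limit. RET, the kinase, had 1 probe over the limit on all arrays, at 102.7 and 94.9 with NS shRNA, 98.6 and 97 with F11, and 96.8 and 97.6 with F12. These groups overlapped, with log2 fold changes of −0.01 (SE 0.0613) and −0.02 (SE 0.0613) and a difference of F12 from F11 of −0.01 (95% interval −0.15 to 0.14, adjusted p = 0.965, limma), which was 0.00 without F11 replicate 1. The other RET probes lay between 79.6 and 89.2, at background.

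The other co-receptor, GFRA1, had 4 probes, of which only the one annotated to BX648964 was bright enough to be tested. It read 90.7 and 95.5 with NS shRNA, 87.8 and 90.1 with F11, and 90.1 and 92.7 with F12, so both F11 arrays lay under the limit and below both NS arrays, while F12 overlapped NS. F12 differed from F11 by 0.04 (95% interval −0.10 to 0.18, adjusted p = 0.795, limma). The 3 probes for the coding transcript NM_005264 lay at or under 90 on all arrays.

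NTRK2 had 3 probes and none was bright enough to be tested. The brightest read 94.1 and 89.1 with NS shRNA, 88.2 and 87.4 with F11, and 84.9 and 85.1 with F12, with a single NS array over the limit. The second stayed between 83.6 and 89.8, and the remaining one between 74.1 and 80.4. TrkB transcript was therefore not detectable at this sensitivity in cells in which BDNF was, which does not show that it was absent.

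**Figure D3:**
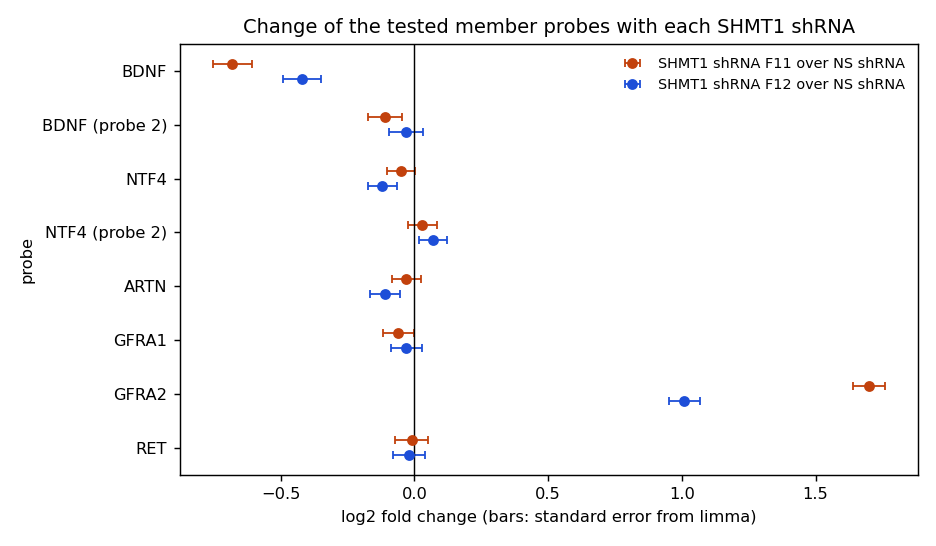
Log2 fold change over NS shRNA of the 8 tested member probes with SHMT1 shRNA F11 and F12, with the standard error from limma (3 residual degrees of freedom, 2 arrays per group). GFRA2 lay at 1.70 and 1.01 and the bright BDNF probe at −0.68 and −0.42, while the other 6 probes lay between −0.12 and 0.07.

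Across all members, 8 of the 22 probes were tested. Against NS shRNA, the average of both SHMT1 shRNAs called 1 member probe higher, where 0.132% of all tested probes were called higher, and 1 lower (background 0.338%). F11 called 1 higher (background 1.24%) and 1 lower (1.36%), and F12 called 1 higher (0.224%) and 0 lower (0.408%). These counts follow from how the members were chosen and nothing is read from them. In F12 against F11, 0 member probes were higher (background 2.81%) and 1, GFRA2, was lower (3.06%). Among the 8 probes, 3 had all 4 SHMT1 shRNA arrays below both NS arrays (BDNF, NTF4 and ARTN, background 6.91%) and 2 had all 4 above (GFRA2 and the second NTF4 probe, background 7.92%). BDNF and GFRA2 are in these counts through the choice of the members, and nothing is read from the counts. The median log2 fold change of the 8 probes was −0.06 for the average, −0.04 for F11 and −0.03 for F12, beside 0 for all tested probes each time. The shares over all probes themselves changed when 1 array was left out. Such a fit leaves 1 group with a single array and has fewer residual degrees of freedom. Whether a particular array or the lost precision moved the counts was not tested. The calls of F12 against F11 numbered 640 higher and 698 lower with all arrays, 117 and 127 without F12 replicate 1, 122 and 119 without F12 replicate 2, and 856 and 990 without F11 replicate 2.

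The wider pathway was then read from 7 gene lists covering further ligands and receptors, proneurotrophin processing, TRK and RET adaptors, NGFR adaptors, response genes and BDNF transcription regulators, with 82 tested probes of 53 genes. In the average of both SHMT1 shRNAs, limma called 0 of the 82 probes, where 0.469% of all tested probes were called, and 16 (19.5%) had an unadjusted p under 0.05, beside 10.3% of all tested. F11 called 3 probes higher (EGR1, FOS and SORL1), which is 3.66% of the 82 beside 2.6% of all tested. F12 called 1 lower (FOS), which is 1.22% beside 0.632%. F12 against F11 called 9 probes of 8 genes, 5 higher and 4 lower, which is 11% of the 82 beside 5.87% of all tested. These shares are descriptions and were not tested against each other.

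Among the further neurotrophin receptors, 6 genes had a probe and 2 were above background. SORL1, a sorting receptor of the family that includes sortilin, read 142.2 and 146.6 with NS shRNA, 191.9 and 188.3 with F11, and 170 and 159 with F12 on the probe that was called (F11 log2 0.40, SE 0.0603, adjusted p = 0.0201, limma). The call did not hold without either NS array (log2 0.37 and 0.42) or in the fit of NS and F11 alone (log2 0.40). The fits without 1 F12 array equal that fit, so they add no further loss. The brighter SORL1 probe did not pass (log2 0.37, adjusted p = 0.09, limma). SORCS2, a co-receptor for proneurotrophins, lay between 329.3 and 389.6 with no call. NTRK3, SORCS1, SORCS3 and the shared neurotrophin receptor NGFR were not above background in any group.

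Of the other GDNF family genes, 2 of 7 were above background. Neurturin (NRTN), the ligand of GFRα2, read 106.8 and 102.4 with NS shRNA, 130.1 and 124.3 with F11, and 100.9 and 105.8 with F12. Both F11 arrays lay above the other 4, and F12 lay below F11 by −0.30 (SE 0.0608, adjusted p = 0.0343, limma), a call lost in 7 of 12 alternatives, including 5 of the 6 fits with 1 array left out (log2 −0.33 to −0.27). Its change with F11 over NS shRNA was 0.28 (adjusted p = 0.0666). NCAM1, an alternative signalling receptor for GDNF, lay between 92.6 and 106.1 on its brightest probe with no call. PSPN, GFRA3, GFRA4, GFRAL and SDC3 were at background, so the preferred co-receptor of artemin was not detected.

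Proneurotrophins are cut to the mature form inside the cell by FURIN and related convertases or outside it by plasmin and metalloproteinases. FURIN lay between 117.9 and 128.8 on all 6 arrays with no call. PCSK5, a convertase, was higher with F12 than with F11 by 0.31 (SE 0.0616, adjusted p = 0.0322, limma), and MMP9, a metalloproteinase, by 0.40 (SE 0.0745, adjusted p = 0.0262). The PCSK5 call was lost in 7 of 12 alternatives, including the fits without any 1 array other than F11 replicate 2 (log2 0.26 to 0.36), and the MMP9 call was lost without F11 replicate 1 or either F12 array (0.39, 0.31 and 0.48). Neither passed against NS shRNA. MMP9 read 122.7 and 131.1 with NS shRNA, 110.1 and 111.8 with F11, and 155.1 and 137.4 with F12, so the NS arrays lay between the SHMT1 shRNA groups. PLAT, which makes plasmin from plasminogen, read 666.9 and 860.9, then 670.8 and 907.9, then 1265.1 and 1109.1, and did not pass (F12 against F11 0.60, SE 0.166, adjusted p = 0.0891, limma). PLG, the plasminogen gene, lay between 80.3 and 87.4, at background on all arrays.

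Of the adaptors and kinases downstream of TRK and RET, 19 of 24 genes exceeded the limit on all 6 arrays, and 1 of 33 probes was called in F12 against F11, where 5.87% of all tested probes were called. The probe was that of GAB2, a docking protein, at 399.4 and 455 with NS shRNA, 391.6 and 403.9 with F11, and 517 and 577.7 with F12 (log2 difference 0.46, SE 0.0845, adjusted p = 0.0245, limma), a call lost without F11 replicate 1 or either F12 array (log2 0.44, 0.54 and 0.38). MAGED1, an adaptor that binds NGFR, was higher with F12 on both of its bright probes (0.35, adjusted p = 0.018, and 0.33, adjusted p = 0.0267), while its other tested probe, near the limit, differed by 0.00 (adjusted p = 0.998). The call of the brighter probe was lost in 3 of 12 alternatives, among them the fits without either F12 array (log2 0.34 and 0.37), and that of the second in 9 of 12, among them each fit with 1 array left out apart from that without F11 replicate 2 (0.28 to 0.38).

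Of the response genes, 3 were called in at least 1 comparison. Of all tested probes, 2.6% were called with F11, 0.632% with F12 and 5.87% in F12 against F11. FOS, an immediate early transcription factor, read 697.3 and 761.9 with NS shRNA, 1219.4 and 1096 with F11, and 459.3 and 464 with F12. It rose with F11 (log2 0.67, SE 0.0747, adjusted p = 0.00682, limma) and fell with F12 (−0.66, SE 0.0747, adjusted p = 0.0144), a difference of −1.32 (adjusted p = 0.000358). The F11 call of FOS was lost without NS replicate 1 (log2 0.60), and the F12 call when any single array of the NS or F12 group was left out (log2 −0.72, −0.59, −0.65 and −0.67). EGR1, a further immediate early factor, rose with F11 (0.60, SE 0.0706, adjusted p = 0.00817), a call lost without either NS array (0.58 and 0.63), and F12 lay below F11 by −0.76 (adjusted p = 0.00182). ETV5, an ETS factor, was lower with F12 than with F11 on 1 probe (−0.27, SE 0.0542, adjusted p = 0.0342), a call lost without any 1 array (log2 −0.28 to −0.25), and its second probe differed by −0.07 (adjusted p = 0.709). DUSP6, SPRY1, SPRY2, SPRY4, ETV4 and VGF, which also respond to receptor tyrosine kinases, had no call. The averaged log2 fold change over NS shRNA was −0.28 and −0.27 on the tested SPRY1 probes (adjusted p = 0.122 and 0.137, limma). It was −0.22 for SPRY2 and −0.14 for VGF, and lay between −0.02 and 0.05 for DUSP6, SPRY4 and ETV4.

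**Figure D4:**
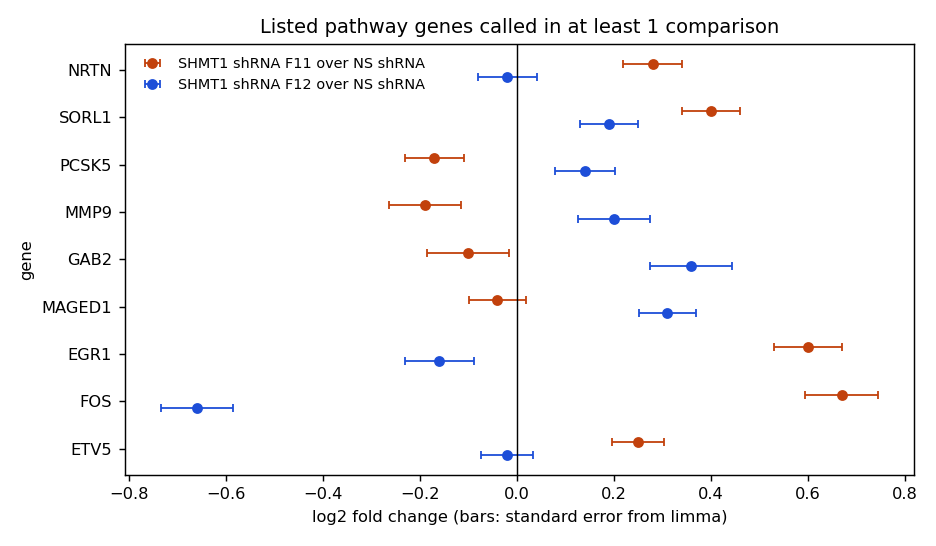
Log2 fold change over NS shRNA with SHMT1 shRNA F11 and F12 for the 9 listed pathway genes called in at least 1 comparison, 1 probe per gene, with the standard error from limma. FOS lay at 0.67 and −0.66, and EGR1, NRTN and ETV5 lay higher with F11, while PCSK5, MMP9, GAB2 and MAGED1 lay higher with F12.

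Among the regulators of BDNF transcription, which include CREB1 and the USF factors whose motifs were searched above, 5 genes were tested with 13 probes and none was called. Of all tested probes, 0.469% were called in the average, 2.6% with F11, 0.632% with F12 and 5.87% in F12 against F11. At these shares few calls would fall among 13 probes, and nothing is read from their absence. The brightest CREB1 probe read 2543.8 and 2402.7 with NS shRNA, 2746.2 and 2470.6 with F11, and 2435.2 and 2386.4 with F12. On this probe both F12 arrays lay below both F11 arrays, and the NS arrays overlapped each of these groups. On the next brightest CREB1 probe both F12 arrays (743.4 and 725.5) lay below all others, F12 differing from F11 by −0.47 (adjusted p = 0.238, limma). The other tested CREB1 probes differed by −0.11 to 0.17. USF1 lay between 238.1 and 263.1 on its brightest probe. The brightest USF2 probe was higher with F11 than with NS shRNA by 0.29 (adjusted p = 0.201, limma), and its other probes by 0.09 and 0.12.

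The genes whose pattern was most like that of BDNF over the 6 arrays were KLK8 (Pearson r = 0.994), INAVA (0.99), MT1M (0.987) and FAM180A (0.987), among 2316 genes compared, and the most opposed were DCAKD (−0.994) and ITPKA (−0.992). KLK8, a secreted serine protease, read 306.8 and 331.1 with NS shRNA, 222.2 and 244.3 with F11, and 259.4 and 264.8 with F12. For GFRA2, among 166 genes whose range was wide enough to compare, the most alike were PALM (0.931), CA12 (0.898), TEAD2 (0.871) and KCNF1 (0.868), and the most opposed were MT1M (−0.985) and SST (−0.984). KCNF1, a potassium channel subunit, read 524.5 and 536.9 with NS shRNA, 1329 and 1374.9 with F11, and 616.1 and 579.1 with F12. These correlations are descriptions over 6 arrays that share 3 groups, and carry no p-value.

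Markers of other cell types were read beside these genes. The summed intensity of 4 leukocyte marker genes ran from 462.3 to 484.4 with NS shRNA, 436.6 to 452.5 with F11 and 388.1 to 412.3 with F12. Of these, 3 were at or under the limit on all arrays and the 1 that was detected, CD14, was lower with F12 on its brighter probe (log2 −0.59, adjusted p = 0.0355, limma). The summed intensity of 6 neuronal markers ran from 562.3 to 562.7, 554.5 to 570.9 and 566.6 to 570. That of 6 fibroblast markers ran from 544.4 to 545.5 with NS shRNA, 561.1 to 570.8 with F11 and 553.2 to 562.8 with F12, so all 4 knockdown arrays lay above the NS pair, although none of the 6 genes exceeded the limit on all 6 arrays. The sums of 3 glial markers were 250 to 251.1, 255.1 to 256.8 and 250.6 to 251.8, and those of 4 endothelial markers 333 to 351.6, 338.2 to 340.2 and 345.4 to 346.8. The part of these lists in the values of BDNF and GFRA2 was not tested.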

How the data were processed

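The authors hybridized biotin-labelled RNA from 6 PEO4 samples to Illumina HumanHT-12 arrays, processed the scans in GenomeStudio and quantile-normalized them with lumi (versions not given in the sources used here), and deposited the normalized intensity of each probe without log transformation. The sources used here do not say whether background was subtracted. The other deposited table, of 12 columns that no label ties to a sample, was left out. Probes were named through the platform annotation (30112 with 1 gene symbol, 8 with several, 17201 with none). The members and gene lists were chosen with earlier results of these data known. Log2 intensities were fitted with limma 3.58.1 in R 4.3.3 (lmFit and eBayes, 3 groups sharing 1 variance, 3 residual and 4.28 prior degrees of freedom), without a block, and p-values were adjusted by Benjamini-Hochberg over all 22794 probes tested, at 0.05. The fit was tested on simulated data. Named genes were all members, up to 4 called genes of each list, the 2 family lists whole, and for BDNF and GFRA2 the 4 most and 2 least correlated genes whose range was at least 0.5 times that of BDNF or GFRA2. Genes such as SPRY1, PLAT, FURIN and CREB1 were named after their values were seen. Alternatives were the filter on dim probes, normexp correction (offset 16), the replicate number as a block, an intensity trend, only the groups compared, other background limits and each array left out. Where a comparison did not involve a group, leaving out either array of that group gave the same fit as only the groups compared. The counts of alternatives therefore hold this fit more than once. No date or slide label was available to test as a batch. The number of arrays limits the precision.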

Additional observations from a re-analysis of the deposited data

Results flagged for a closer look

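These results were singled out because the effects of the 2 SHMT1 shRNAs differed from each other by limma's test of F12 against F11, with p-values adjusted over all tested probes. Among the 12 alternatives, those without either NS array and that of only the groups compared are the same fit. GFRA2 was lower with F12 than with F11 by −0.68 on the log2 scale (adjusted p = 0.00135), and the call held in all 12 alternatives. FOS was lower by −1.32 (adjusted p = 0.000358) and EGR1 by −0.76 (adjusted p = 0.00182), and both held in all 12 alternatives. NRTN was lower by −0.30 (adjusted p = 0.0343; 0.00748 to 0.227 over the alternatives, 7 of 12 lost). ETV5 was lower by −0.27 (adjusted p = 0.0342; 0.0194 to 0.217, 10 of 12 lost). MMP9 was higher by 0.40 (adjusted p = 0.0262; 0.0049 to 0.176, 3 of 12 lost, without F11 replicate 1 or either F12 array). GAB2 was higher by 0.46 (adjusted p = 0.0245; 0.0182 to 0.189, lost without the same 3 arrays). PCSK5 was higher by 0.31 (adjusted p = 0.0322; 0.0155 to 0.226, 7 of 12 lost). The MAGED1 probes were higher by 0.35 (adjusted p = 0.018; 0.0105 to 0.15, 3 of 12 lost) and by 0.33 (adjusted p = 0.0267; 0.0186 to 0.196, 9 of 12 lost).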

How the results depend on the processing

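With normexp background correction the averaged log2 fold change of BDNF became −0.76 and that of GFRA2 1.57, against −0.55 and 1.36 as reported. Differences between the replicates correlated at 0.457 between NS and F11, −0.292 between NS and F12 and −0.311 between F11 and F12. The signs differed, so the replicate number did not mark a factor of the same direction in all groups. Structure shared across groups in another order was not tested, and no fit here removes it. With the replicate block the values stayed at −0.55 for BDNF and 1.36 for GFRA2. In F12 against F11 the block gave 0.27 for BDNF (adjusted p = 0.0721; 0.0585 to 0.343 over the alternatives) and −0.68 for GFRA2 (adjusted p = 0.00514; 0.000604 to 0.0299), with no change of call. The block lowered the calls of F12 against F11 from 640 higher and 698 lower to 510 and 547 over all probes. With 1 array left out, the averaged values ran from −0.62 to −0.48 for BDNF and from 1.33 to 1.38 for GFRA2, the member probes called in the averaged comparison numbered 1 to 2 (1 without either NS or either F12 array), and the RET difference of F12 from F11 ran from −0.02 to 0.00. F11 called 1 member probe in place of 2 without NS replicate 2, and F12 called 0 in place of 1 without NS replicate 2 or either F12 array and 2 without either F11 array. Over all probes, the averaged calls fell from 30 higher and 77 lower to 1 and 8 without NS replicate 1 and to 1 and 0 without NS replicate 2. The F11 calls fell from 282 higher and 311 lower to 44 and 54 without NS replicate 2, and the F12 calls from 51 and 93 to 0 and 0 without NS replicate 2 or F12 replicate 1. The number of member genes above background ran from 5 to 6. Fitting only the groups compared gives no value for the averaged comparison. Without a filter on dim probes, F11 called 5 listed pathway probes and F12 called 2, in place of 3 and 1. Over all results and alternatives, 312 values kept their side of the threshold or moved by less than the replicate spread, 56 lost a call, 22 moved further and 1, RET, changed sign. Genes near the limit of 91.7, among them NTF4, RET, NTRK2 and GFRA1, are measured too close to unspecific signal for small changes to be seen.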
